A study of Mus musculus with 159 samples.

Results

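MARCO+ macrophage segments were compared with segments that stained for none of the cell markers, called Other, in sections of 4 fibrotic mouse livers profiled on the NanoString GeoMx platform. In this assay, probes against messenger RNAs are hybridised to a fixed tissue section, and ultraviolet light releases the probe barcodes from chosen areas. Regions of interest (ROIs) were picked by hand as MARCO-high or MARCO-low from MARCO immunofluorescence and were divided by stain into DESMIN+ segments, called HSC for hepatic stellate cells, MARCO+ segments (DESMIN-, MARCO+, IBA1+), MARCO- segments (IBA1+ alone) and Other segments (negative for all 3 stains). The comparison used all 45 MARCO+ and all 49 Other segments of the 159 segments in the series, chosen by their segment labels, and 43 ROIs held one of each.

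The livers came from wild-type C57BL/6 mice, 1 mouse per liver, of a cohort of both sexes that was given carbon tetrachloride (CCl4) for 6 weeks starting in young adulthood. The labels call livers 1 and 3 treated CCl4 (fibrosis) and livers 2 and 4 control (healthy), although the series text gives CCl4 to all of them. Per the methods, some of the mice also received MARCO+ bone marrow-derived macrophages and the others received saline, and the labels used here do not say which. Resident, recruited and transferred MARCO+ cells cannot be told apart in these segments.

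The table held 607 genes that the study had picked as expressed by stellate cells, so most genes that define macrophages, hepatocytes or endothelial cells were not among them. Of the markers set for this comparison, the table held 4 of 11 for macrophages, 10 of 10 for stellate cells, 0 of 6 for hepatocytes and 0 of 5 for endothelial cells. Values were scaled by the authors so that the 75th percentile of each segment was equal (Q3 normalization). Counts recovered from these values totalled 3106 to 27341 per MARCO+ segment (median 8408) and 75571 to 448875 per Other segment (median 209469), so a gene at the 75th percentile rested on a median of 15.5 counts in MARCO+ and 379.5 in Other segments. A MARCO+ segment is a thin mask over scattered cells, whereas an Other segment is the remaining area of the ROI. In such pooled areas, fewer cells of a type and less RNA per cell cannot be told apart.

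MARCO, the macrophage receptor with collagenous structure, is a class A scavenger receptor that binds bacteria, modified lipoproteins and debris. In liver it is carried by subsets of resident macrophages, the Kupffer cells, which line the sinusoids and clear particles from portal blood. Most of the remaining liver area is parenchyma, in which hepatocytes make and secrete plasma proteins and metabolise steroids and xenobiotics. Macrophages also express secreted lectins, receptors for dying cells, adhesion molecules and lysosomal proteases.

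The 4 macrophage markers set for this comparison had the largest differences of the 607. They were set with earlier results of these data known, so their rank and p-values are no independent result. For each gene, values were averaged per liver, ROI class and segment type, log2(value + 1) was taken, and the 2 ROI classes of a liver were given equal weight. Marco itself, at chromosome 1, 120474538 to 120505024 (GRCm38.p6), averaged 9.35, 7.25, 9.75 and 7.37 in the MARCO+ segments of livers 1 to 4 and 4.17, 3.27, 4.82 and 3.30 in the Other segments. MARCO+ values lay above Other values in every liver, and livers 1 and 3 were the highest in both segment types. The difference was 4.54 on the log2 scale ± 0.60 (SD, n = 4 livers), a 23.3-fold higher level. Because the segments were drawn on MARCO protein, this is a check of the labels and no finding, and an exact two-sided sign-flip permutation test over 4 livers gave p = 0.13, the smallest it can give.

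Fcna encodes ficolin A, a secreted lectin that recognises sugars on microbes and starts the lectin pathway of complement (chromosome 2, 25624665 to 25635440). It averaged 7.58, 7.68, 7.83 and 7.54 in MARCO+ segments and 3.19, 2.97, 3.61 and 3.16 in Other segments, with no overlap. The Fcna difference was 4.43 ± 0.21 (SD, n = 4; limma adjusted p = 3.57e-13), or 21.5-fold. Over single segments, Fcna values ran from 54.8 to 429 in the 45 MARCO+ segments and from 5.09 to 21.6 in the 49 Other segments.

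Sdc3, the heparan sulfate proteoglycan syndecan 3 (chromosome 4, 130792537 to 130826318), averaged 7.77, 7.24, 7.59 and 7.42 in MARCO+ and 3.88, 3.60, 4.10 and 3.62 in Other segments. Its difference was 3.71 ± 0.18 (SD, n = 4; limma adjusted p = 1.3e-12). Axl, a receptor tyrosine kinase that recognises phosphatidylserine on dying cells through the bridging protein Gas6 (chromosome 7, 25756500 to 25788924), averaged 6.62, 6.47, 6.57 and 6.53 in MARCO+ segments. In Other segments Axl averaged 3.40, 3.18, 3.57 and 3.12, a difference of 3.23 ± 0.17 (SD, n = 4; limma adjusted p = 4.89e-12). For Fcna, Sdc3 and Axl, each of the 45 MARCO+ segments was above the highest Other segment, and for Marco 42 of 45 were.

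**Figure D1:**
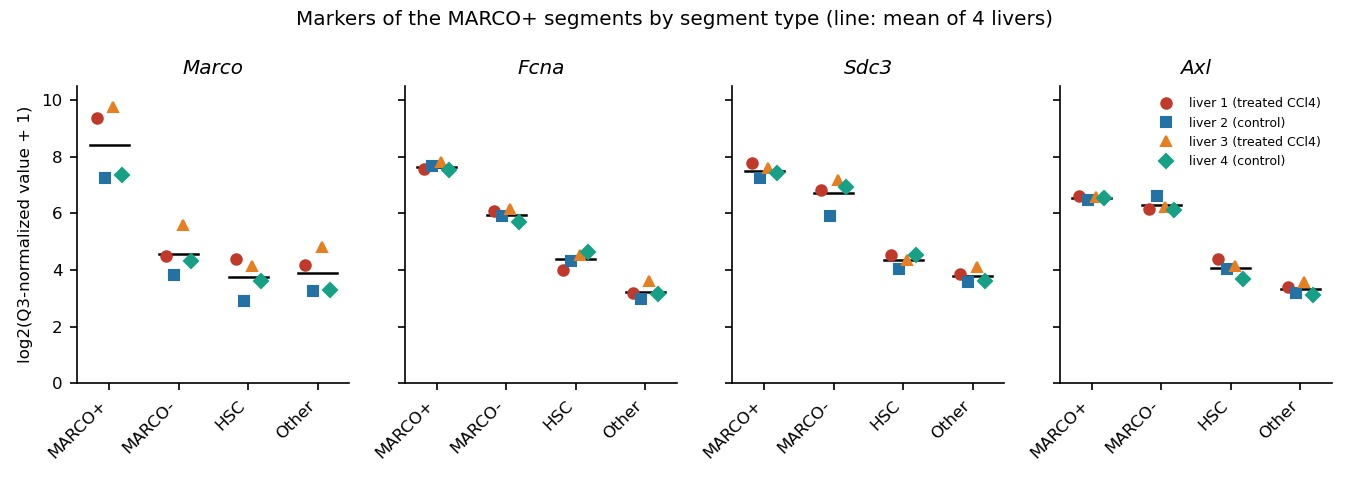
Level of Marco, Fcna, Sdc3 and Axl, as log2(Q3-normalized value + 1), in the 4 segment types, with 1 point per liver and a line at the mean of 4 livers (MARCO- of liver 2 from MARCO-low ROIs alone). Fcna, Sdc3 and Axl had their lowest mean in Other segments and Marco in HSC segments, and Marco in MARCO+ segments was at 9.35 and 9.75 in livers 1 and 3 and at 7.25 and 7.37 in livers 2 and 4.

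These genes differed in how far they set MARCO+ segments apart from the other stained segments. Against HSC segments, which share the MARCO+ segments with the comparison above, Marco was 4.66 higher, Fcna 3.28, Sdc3 3.14 and Axl 2.48 on the log2 scale. Against MARCO- macrophage segments, Marco was 3.71 higher and Fcna 1.61 higher (limma adjusted p = 5.77e-09), Sdc3 was 0.75 higher (adjusted p = 0.0035), and Axl differed by 0.26 without passing the threshold (adjusted p = 0.327). MARCO- segments were the shallowest, with a median total of 1639.5 counts. They numbered 24, with none in the MARCO-high ROIs of liver 2 and 1 in those of liver 1, so liver 2 entered that comparison with MARCO-low ROIs alone.

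Over all 607 genes, 157 were higher and 189 lower in MARCO+ than in Other segments at a limma adjusted p under 0.05, which is 25.9% and 31.1% of the table, and 378 had an unadjusted p under 0.05. The median difference over all genes was -0.05. Of the 346 genes past the threshold (57%), 329 had the same sign in all 4 livers. Higher genes reached further than lower ones: 48 were more than 1 log2 unit higher and 9 more than 2, whereas 21 were more than 1 lower and 0 more than 2 lower. Centring each segment on its median instead gave 117 higher and 301 lower genes, and 28.0% of the calls were then higher instead of 45.4%, since that scaling moved the median of all genes to -0.22.

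Below the 4 markers, the 8 next highest differences lay between 1.79 and 2.25. Zeb2, a transcription factor that maintains the identity of tissue macrophages, averaged 5.71, 5.19, 5.85 and 5.48 in MARCO+ and 3.32, 3.19, 3.48 and 3.26 in Other segments. The Zeb2 difference was 2.25 ± 0.18 (SD, n = 4; limma adjusted p = 3.58e-10). Vcam1, the adhesion molecule that binds integrin alpha-4 on leukocytes, averaged 5.32, 4.74, 4.94 and 5.33 against 2.90, 2.65, 3.07 and 2.76, a difference of 2.24 ± 0.32 (SD, n = 4; limma adjusted p = 2.13e-09). Both genes were higher in MARCO+ segments in 43 of 43 ROIs that held both segment types.

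Ctsd encodes cathepsin D, the main aspartyl protease of lysosomes. It averaged 8.29, 8.36, 8.27 and 8.32 in MARCO+ and 6.40, 6.44, 6.47 and 6.64 in Other segments, a difference of 1.82 ± 0.11 (SD, n = 4; limma adjusted p = 1.55e-09). The remaining genes of the 12 highest differed by 1.79 to 2.15. They were Tmem86a, a lysoplasmalogenase (2.15), Dse, an epimerase that turns chondroitin into dermatan sulfate (2.06), Flna, the actin crosslinker filamin A (2.03), Filip1l, which interacts with filamin A (1.81), and Ckb, the brain-type creatine kinase (1.79).

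Several of these genes were at the bottom of the table in Other segments. The 5th percentile of the genes' mean value was 5.28 in Other segments, where the median Q3-normalized value was 5.19 for Ckb, 5.44 for Filip1l, 6.04 for Dse and 6.22 for Vcam1. Negative-probe values were not used here, so the part of these low values that is probe background was not tested. In MARCO+ segments the same genes were read from few counts, with medians of 14 for Ckb, 13 for Filip1l, 18 for Dse and 20 for Vcam1, and Dse fell to 1 count in its lowest segment. Raising all averages below the value of 3 counts to that floor left 153 higher and 187 lower genes.

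The 12 highest genes were picked for high values in the MARCO+ segments that the next comparisons share, so a share above that of all genes was favoured in advance. Of the 12, 11 were also higher than in HSC segments, where 23.4% of all genes were, and the exception was Flna with 0.42 (limma adjusted p = 0.0764). Without liver 2 or without liver 4, Flna passed as well. Against MARCO- segments, 4 of the 12 were higher (Marco, Fcna, Sdc3 and Ctsd), where 5.77% of all genes were, and Zeb2 was lower (-0.57, adjusted p = 0.0253), where 27.8% were. The median difference over all genes was -0.21 in that comparison. Ctsd did not pass against MARCO- segments without liver 3 or liver 4, and Zeb2 did not without liver 1, 2 or 4.

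**Figure D2:**
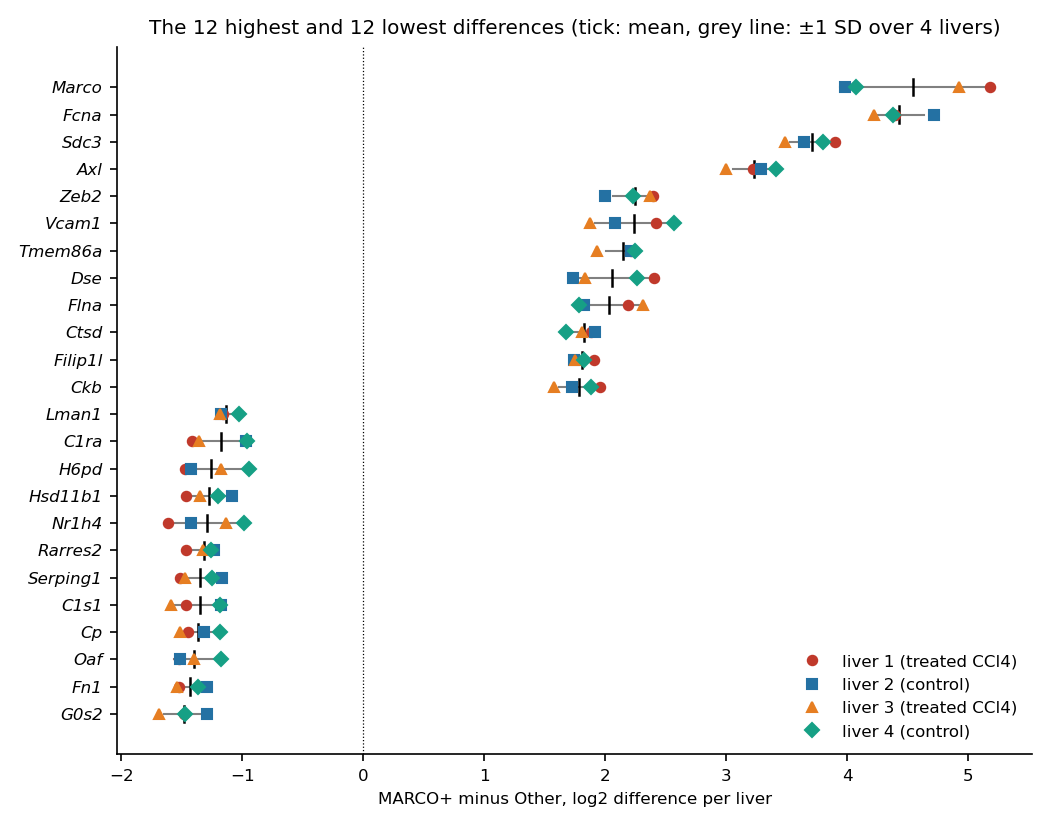
MARCO+ minus Other on the log2 scale for the 12 highest and the 12 lowest genes past the threshold, with 1 point per liver, a tick at the mean and a grey line of ±1 SD over 4 livers. Points of all 4 livers lie on the same side of 0 for each gene, and Marco has livers 1 and 3 at 5.18 and 4.93 and livers 2 and 4 at 3.98 and 4.07.

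The lowest genes encoded mostly secreted plasma and complement proteins and enzymes of the endoplasmic reticulum. Fn1, which encodes fibronectin of plasma and matrix, averaged 6.30, 6.73, 6.11 and 6.67 in MARCO+ segments and 7.82, 8.02, 7.65 and 8.03 in Other segments. Its difference was -1.43 ± 0.12 (SD, n = 4; limma adjusted p = 1.77e-08), and each of the 45 MARCO+ segments was below the lowest Other segment. Cp, the copper-carrying plasma ferroxidase ceruloplasmin, averaged 6.02, 6.21, 5.91 and 6.14 against 7.46, 7.53, 7.42 and 7.32, a difference of -1.36 ± 0.15 (SD, n = 4; limma adjusted p = 3.09e-08). The difference for Cp had the same sign in 43 of 43 ROIs with both segments.

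The proteases that start the classical pathway and their inhibitor moved the same way. C1s1 differed by -1.35, C1ra by -1.17 and Serping1, the C1 inhibitor, by -1.35 (limma adjusted p from 4.32e-08 to 3.71e-07 for the 3 genes). Rarres2, the precursor of the chemoattractant chemerin, differed by -1.32 ± 0.10 (SD, n = 4).

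G0s2, an inhibitor of adipose triglyceride lipase, had the lowest difference of the table. It averaged 3.60, 3.23, 4.20 and 4.36 in MARCO+ and 5.08, 4.53, 5.89 and 5.83 in Other segments, a difference of -1.48 ± 0.16 (SD, n = 4; limma adjusted p = 1.77e-08). The levels of the 2 segment types did not overlap, although livers 3 and 4 were higher than livers 1 and 2 in both.

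Nr1h4, the bile acid receptor FXR, differed by -1.29 ± 0.28 (SD, n = 4). Hsd11b1, which makes active glucocorticoid inside the endoplasmic reticulum, differed by -1.27, and H6pd, which supplies that enzyme with NADPH, by -1.26. Lman1, a receptor that carries coagulation factors out of the endoplasmic reticulum, differed by -1.14, and the secreted protein gene Oaf by -1.40.

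The 12 lowest genes were picked for low values in the MARCO+ segments that the next comparisons share. Against HSC segments, 7 of the 12 were lower in MARCO+ segments (G0s2, Fn1, C1s1, Serping1, Rarres2, Nr1h4 and C1ra), where 36.6% of all genes were, with differences from -0.31 to -0.60. Fn1 and C1ra did not pass there without liver 1, 3 or 4. Oaf, Cp, Hsd11b1, H6pd and Lman1 differed from HSC segments by -0.21 to 0.01 without passing. Against MARCO- segments, 0 of the 12 were lower by limma, where 27.8% of all genes were and the median difference over all genes was -0.21. At an unadjusted p under 0.05 the number was also 0. Higher were 5 (Oaf, Serping1, Rarres2, Hsd11b1 and C1ra, by 0.55 to 0.89), where 5.77% of all genes were. Without liver 2, only Hsd11b1 of these 5 passed. In MARCO- segments a median of 47.4% of genes stood at 1 count, so these differences rest on few counts. A value of 1 count was a median of 8.69 there and 1.68 in MARCO+ segments, so weak genes had a higher floor in MARCO- segments. The part of this floor in the shares of all genes was not tested.

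Gene lists were described by their counts and medians, beside 25.9% higher, 31.1% lower and a median of -0.05 over all genes. All 9 macrophage and Kupffer cell genes in the table were higher, with a median of 1.82. Of these 9, 4 were the markers set for this comparison, so the count and median are no independent result. Besides the 4 markers and Ctsd, the list held Itga9 (1.52), an integrin subunit, Plac8 (1.12), Id3 (1.11), a transcriptional regulator of Kupffer cell identity, and the tetraspanin Cd81 (0.36). Of the list, 8 passed with segments centred on their median. Among 13 scavenger, lectin and phosphatidylserine recognition genes, 6 were higher and 1 lower. Marco, Fcna and Axl, markers set for this comparison, were among the 6, so this count is no independent result either. Colec10 (0.85) and Colec11 (0.78), collectins of the lectin pathway, were among the higher genes, but both were lower than in HSC segments (-0.76 and -1.61). Masp1, the protease that these lectins carry, was lower (-0.55).

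Lysosomal genes, a list drawn up after the values were seen, went in both directions. Of 12, 6 were higher and 2 lower, with a median of 0.28. Cst3, the cysteine protease inhibitor cystatin C, was 1.02 higher, whereas Ctsl, cathepsin L, was lower (-0.71) although not past the threshold under quantile normalization (-0.17, adjusted p = 0.104). With segments centred on their median, 4 were higher and 5 lower, beside 117 and 301 of all 607 genes.

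Genes that respond to interferon were mostly higher, 9 of 12, with 0 lower and a median of 0.61. This list, too, was drawn up after the values were seen. Ifi27l2a, a mitochondrial interferon-induced protein, averaged 5.78, 5.03, 5.76 and 5.21 in MARCO+ and 3.69, 3.55, 4.20 and 3.67 in Other segments, a difference of 1.66 ± 0.28 (SD, n = 4; limma adjusted p = 2.23e-08). Lgals3bp, a secreted galectin-binding scavenger-receptor protein, differed by 1.52, Ifi203, a nuclear DNA sensor family member, by 1.41, and Slfn5, a Schlafen protein, by 1.38 ± 0.06 (SD, n = 4). Ifit3, Rtp4, Ifitm1 and Ifnar2 were among the others, higher by 0.39 to 0.78. Isg15 (0.18, adjusted p = 0.127), Tapbp (0.09) and H2-T23 (-0.19) did not pass. With segments centred on their median, 8 were higher and 1 lower, beside 117 and 301 of all 607 genes.

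Promoters were read for the interferon list, of which 9 of 12 members were higher. Of the 12 genes, 9 had a window from 250 bases before to 50 after a start site in the RefSeq table for GRCm38.p6, and 5 of these 9 (Isg15, Ifit3, Slfn5, Ifi203 and H2-T23) held the core of the interferon-stimulated response element on either strand, searched as GAAA, any 2 bases and GAAA. Of all 32851 windows, 3.44% held it. Counted by gene, with a match in any of its windows, the share was 4.76% of 126 genes higher in MARCO+ segments. It was 3.50% of 143 lower genes. Shares by gene and by window are not in the same unit. The windows of the 3 members that held a match and were higher are shown with the matches in capitals (TTTC, any 2 bases and TTTC on the strand printed is a match on the other strand), at chr19:34583279-34583578 (plus strand) for Ifit3, chr11:82951852-82952151 (plus strand) for Slfn5 and chr1:173942443-173942742 (minus strand) for 1 of the 2 windows of Ifi203.
Ifit3: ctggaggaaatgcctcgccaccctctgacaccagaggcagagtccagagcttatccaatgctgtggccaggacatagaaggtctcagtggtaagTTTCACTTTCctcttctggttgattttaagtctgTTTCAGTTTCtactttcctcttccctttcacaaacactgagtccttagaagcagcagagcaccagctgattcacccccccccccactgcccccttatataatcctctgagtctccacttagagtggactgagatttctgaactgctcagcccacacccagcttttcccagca
Slfn5: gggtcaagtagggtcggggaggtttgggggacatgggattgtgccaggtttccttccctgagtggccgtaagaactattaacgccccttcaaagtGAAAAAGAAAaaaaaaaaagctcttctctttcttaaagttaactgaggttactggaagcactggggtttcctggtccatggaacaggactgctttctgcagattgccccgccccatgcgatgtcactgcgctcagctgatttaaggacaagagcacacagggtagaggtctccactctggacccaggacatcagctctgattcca
Ifi203: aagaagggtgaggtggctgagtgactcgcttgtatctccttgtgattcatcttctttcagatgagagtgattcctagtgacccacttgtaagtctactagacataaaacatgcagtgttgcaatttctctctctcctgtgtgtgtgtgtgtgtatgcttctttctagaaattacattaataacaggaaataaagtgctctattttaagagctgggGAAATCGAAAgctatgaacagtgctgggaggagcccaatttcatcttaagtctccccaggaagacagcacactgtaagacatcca
In Ifit3 the matches started 156 and 122 bases before the start site, in Slfn5 155 and in Ifi203 35 bases before it. Sequences bound by macrophage lineage factors were searched in the same way. AGGAAGT, a PU.1-type ETS site, was in a window of 7 of 126 higher genes and 8 of 143 lower genes, and in 9.35% of all windows. For TGCTGAC, a MAF-type site, the numbers were 12 of 126 higher genes, 15 of 143 lower genes and 4.67% of all windows. Over the 464 genes of the table with a window, the shares by gene were 4.31% for the interferon element, 6.47% for AGGAAGT and 7.54% for TGCTGAC. Neither overlaps the letters of the interferon element, and a match is a description of the sequence, not a bound site.

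Lists of secretory and metabolic genes held mostly lower members. Of 37 genes for folding and export in the endoplasmic reticulum, 28 were lower and 1 higher (Ckap4, 0.27), with a median of -0.48. P4hb, a protein disulfide isomerase, averaged 6.58, 7.05, 6.75 and 7.04 in MARCO+ and 7.83, 8.12, 7.89 and 8.10 in Other segments, a difference of -1.13 ± 0.09 (SD, n = 4; limma adjusted p = 1.23e-07). Xbp1, the transcription factor of the secretory programme, differed by -0.83 and the disulfide isomerase Pdia4 by -0.82. Against HSC segments, the same 37 genes gave 13 higher and 3 lower, with a median of 0.21. Over all genes of that comparison, 23.4% were higher and 36.6% lower, with a median of -0.07.

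Of 13 complement and plasma protein genes, 10 were lower and 2 higher (Colec10 and Colec11), with a median of -1.11. Of 8 genes of steroid and xenobiotic metabolism, 6 were lower, among them Papss2 (-1.08), which makes the sulfate donor, and Vkorc1 (-1.06), which recycles vitamin K. Of 6 nuclear receptor genes, 3 were lower, Rora by -0.57 and Nr3c1, the glucocorticoid receptor, by -0.30 beside Nr1h4. These 4 lists were also drawn up after the values were seen. None of the 6 hepatocyte markers set for this comparison was in the table, so the share of hepatocyte RNA in either segment type and its part in these differences was not tested. Mt1, the only gene of the longer hepatocyte list in the table and a metal-binding protein, differed by -0.66 and by -1.17 in liver 1.

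**Figure D3:**
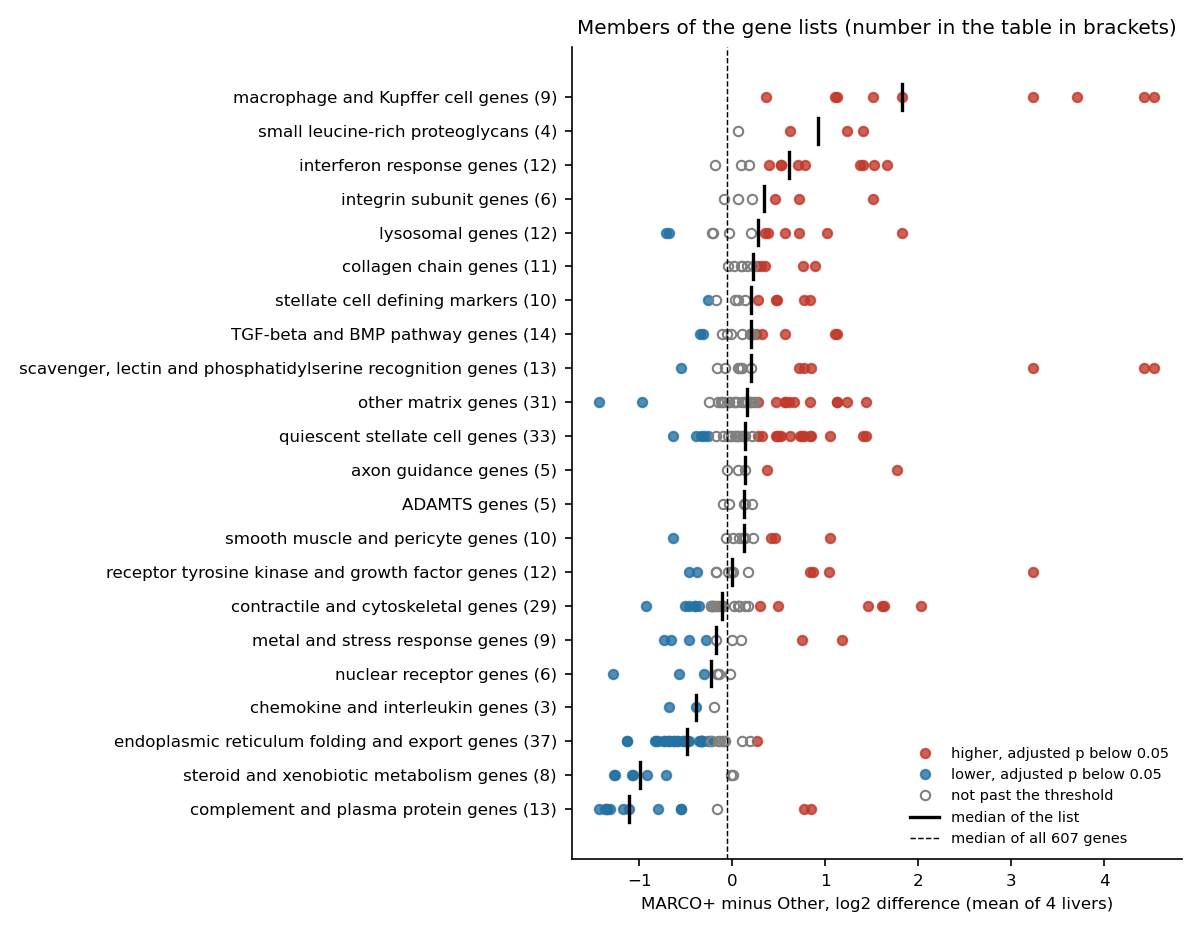
MARCO+ minus Other on the log2 scale (mean of 4 livers) for every member of the gene lists with 3 or more genes in the table, red where higher and blue where lower past the threshold and open grey where not, with a black line at each list's median and a dashed line at the median of all genes, -0.05. Macrophage genes, 4 of them the markers set for this comparison, lie at the top with a median of 1.82. Complement and plasma protein genes lie at the bottom with -1.11.

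Members of the stellate cell and matrix lists were compared with HSC segments as well. Dcn, the small leucine-rich proteoglycan decorin, averaged 5.84, 5.88, 5.69 and 5.60 in MARCO+, 4.49, 3.94, 4.43 and 4.49 in Other and 7.54, 7.92, 7.60 and 7.44 in HSC segments. In every liver MARCO+ segments lay between Other and HSC segments. The Dcn difference was 1.41 ± 0.36 from Other (SD, n = 4, limma adjusted p = 2.92e-07) and -1.87 from HSC segments (adjusted p = 1.49e-08). Ecm1, a secreted matrix protein, was placed alike, 1.44 above Other and -1.36 from HSC segments, as was Bgn, the proteoglycan biglycan, at 1.23 and -1.74. From MARCO- segments, Dcn differed by -0.08, Ecm1 by -0.19 and Bgn by -0.46 without passing (limma adjusted p = 0.80, 0.52 and 0.0746).

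Of 33 quiescent stellate cell genes, 15 were higher and 5 lower than in Other segments, with a median of 0.14. With segments centred on their median the list's median was -0.02, while that of all genes moved from -0.05 to -0.22. Of 11 collagen chain genes 5 were higher and 0 lower, with a median of 0.22, led by Col14a1 (0.89) and Col3a1 (0.76), but only 2 passed with that centring. Of 31 other matrix genes 11 were higher and 2 lower (Fn1 and Sdc2), beside 25.9% higher and 31.1% lower of all genes. With that centring the numbers were 10 and 7, beside 117 higher and 301 lower of all 607 genes. Among the higher genes were Timp2 (1.23), an inhibitor of matrix metalloproteinases, and Tgfbi (1.13), a matrix protein induced by TGF-beta. Against HSC segments the order was reversed: 0 of 33 stellate genes were higher and 30 lower, 11 of 11 collagen chains lower, and 27 of 31 other matrix genes lower. Over all genes of that comparison, 23.4% were higher and 36.6% lower.

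The summed Q3-normalized level of the 10 stellate cell markers, among them Des, Lrat, Reln, Pdgfrb, Hgf and Colec11, stood beside these results. It was 92.9 to 107 over the 4 livers in MARCO+, 72.0 to 90.1 in Other, 220 to 285 in HSC and 127 to 157 in MARCO- segments. Every value in the table was at least 1 count, so a gene without signal could not be told from one at the lowest level. That lowest level was unlike between segment types: 1 count was a median value of 0.069 in Other, 1.68 in MARCO+, 3.72 in HSC and 8.69 in MARCO- segments. The part of this floor in the sums was not tested. Of the 10, 5 were higher in MARCO+ than in Other segments and 1 lower. Des, whose protein defined the HSC segments, differed by 0.07 from Other (adjusted p = 0.539). The part of stellate RNA in the differences of matrix genes was not tested.

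Contractile and cytoskeletal genes went in both directions, 6 higher and 6 lower of 29, beside 25.9% and 31.1% of all genes. The higher ones were led by Flna, Vim (1.64), an intermediate filament protein of mesenchymal and blood cells, Actn1 (1.62), the actin crosslinker alpha-actinin, and Csrp1 (1.46), and the lowest was Cnn3 (-0.93), an actin-binding calponin. Actn1 was 1.57 higher than in HSC segments too, while Vim differed from them by 0.04 (adjusted p = 0.83). With segments centred on their median, 5 were higher and 17 lower, beside 117 and 301 of all 607 genes. Integrin subunits (3 of 6 higher, led by Itga9 and Itgb5) and small leucine-rich proteoglycans (3 of 4 higher) had 0 lower members. Of the remaining lists, TGF-beta and BMP pathway genes gave 5 higher and 2 lower of 14, receptor tyrosine kinases and growth factors 4 and 2 of 12, smooth muscle and pericyte genes 3 and 1 of 10, stress response genes 2 and 4 of 9, axon guidance genes 2 and 0 of 5, chemokine and interleukin genes 0 and 2 of 3, and ADAMTS genes 0 and 0 of 5. These counts stand beside the same shares of all genes, 25.9% higher and 31.1% lower. The other fixed lists had fewer than 3 genes in the table.

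Whether the MARCO+ profile depended on the surrounding region was asked by forming the difference separately in MARCO-high and MARCO-low ROIs. In MARCO-high ROIs 150 genes were higher and 192 lower (24.7% and 31.6%), and in MARCO-low ROIs 125 and 139 (20.6% and 22.9%). The difference between the classes was past the threshold for 0 genes by limma, 50 had an unadjusted p under 0.05, and with a pseudocount of 5 instead of 1 it passed for 3 (Marco, Fcna and Cd63).

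Fcna differed from Other by 4.77, 4.99, 4.87 and 4.82 in the MARCO-high ROIs of livers 1 to 4 and by 4.03, 4.44, 3.57 and 3.94 in the MARCO-low ROIs. It was larger in MARCO-high ROIs in each liver, by 0.86 on average (limma adjusted p = 0.089, and 0.00594 with a pseudocount of 5). In single MARCO+ segments Fcna ran from 169 to 429 (median 286, 26 segments) in MARCO-high ROIs and from 54.8 to 219 (median 132, 19 segments) in MARCO-low ROIs. For Marco, the stain by which the ROI classes were chosen, the gap between classes was 1.14 (adjusted p = 0.0868).

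Cd63, a tetraspanin of late endosomes and exosomes, and Gdf10, a BMP-family ligand, were picked after their values were seen, as genes whose gap between classes lay the other way. Cd63 differed from Other by 0.24, 0.10, -0.68 and 0.20 in MARCO-high and by 0.85, 1.16, 0.47 and 0.72 in MARCO-low ROIs, a gap of -0.84 (limma adjusted p = 0.089, and 0.0307 with a pseudocount of 5). Gdf10 had a gap of -0.67 (adjusted p = 0.089) but was read from a median of 4 counts in MARCO+ segments.

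**Figure D4:**
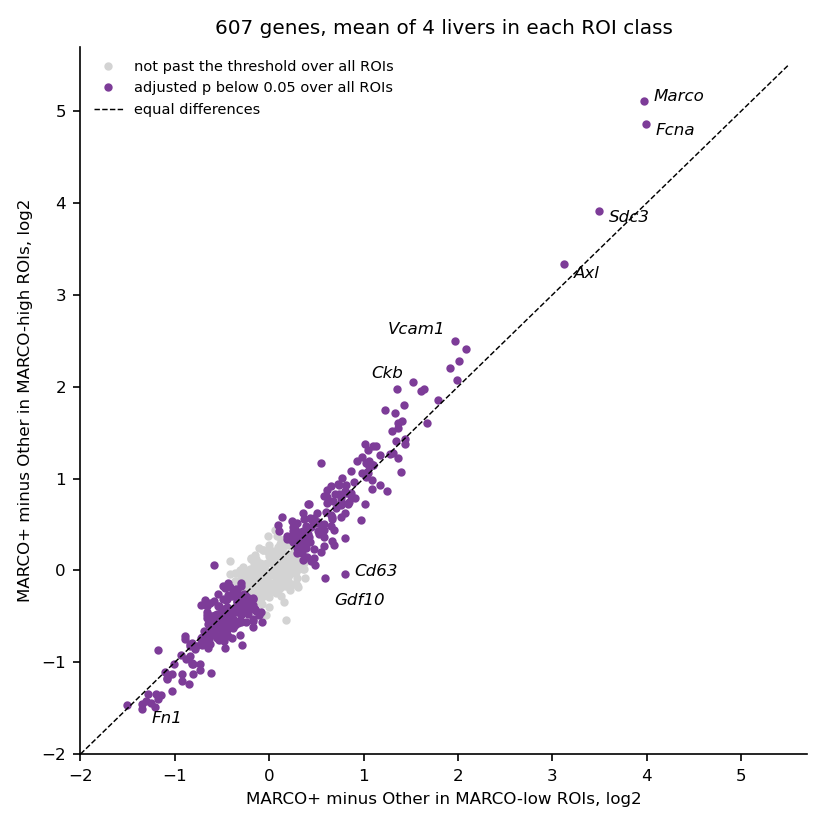
MARCO+ minus Other on the log2 scale in MARCO-low ROIs (horizontal) and MARCO-high ROIs (vertical), 1 point per gene as the mean of 4 livers, purple where past the threshold over all ROIs, with a dashed line of equal differences. Marco and Fcna lie above the line by 1.14 and 0.86, and Cd63 and Gdf10 below it by -0.84 and -0.67.

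Between the livers labelled treated CCl4 (1 and 3) and control (2 and 4), the MARCO+ minus Other difference was unlike for 4 of 607 genes (0.659%) by limma, 2 more positive and 2 more negative in livers 1 and 3 (0.329% each), and 73 genes had an unadjusted p under 0.05. Mmp14, a membrane-bound metalloproteinase that cleaves collagen, averaged 5.31 and 5.57 in the MARCO+ segments of livers 1 and 3 and 4.18 and 3.84 in those of livers 2 and 4, while Other segments lay between 3.71 and 4.06 in all livers. The Mmp14 difference was therefore 1.40 and 1.51 in livers 1 and 3 and 0.29 and 0.13 in livers 2 and 4, a gap of 1.25 (limma adjusted p = 0.00269). In MARCO- segments Mmp14 averaged 5.31 and 5.15 in livers 1 and 3 and 4.76 and 4.08 in livers 2 and 4. MARCO+ segments differed from MARCO- segments by -0.09 over the 4 livers (limma adjusted p = 0.771). For Marco the gap was 1.03 (adjusted p = 0.0129), with 5.18 and 4.93 in livers 1 and 3 and 3.98 and 4.07 in livers 2 and 4.

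Golim4, a Golgi membrane protein, differed from Other by -0.86 and -0.88 in livers 1 and 3 and by -0.01 and -0.11 in livers 2 and 4, a gap of -0.81 (limma adjusted p = 0.0384). Bicc1, an RNA-binding protein, differed by -0.76 and -0.55 against 0.24 and 0.20, a gap of -0.87 (adjusted p = 0.0333), but rested on a median of 3 counts in MARCO+ segments. With 2 livers per label, these calls depended on single livers. Leaving out liver 2 or liver 4 left none of the 4 past the threshold (adjusted p from 0.170 to 0.419), without liver 1 only Mmp14 did, and without liver 3 Mmp14, Marco and Bicc1 did. The gaps kept their sign, and for Mmp14 they ran from 1.17 to 1.33. What else differs between these livers, including the cell transfer, cannot be told apart from the label.

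**Figure D5:**
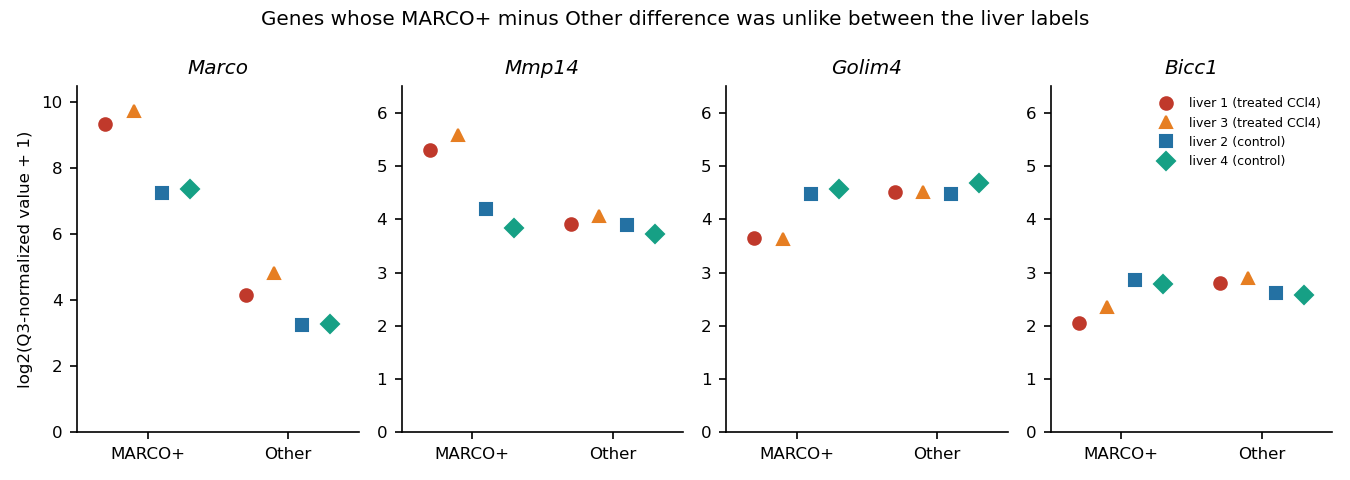
Level, as log2(Q3-normalized value + 1), of the 4 genes whose MARCO+ minus Other difference was unlike between liver labels, with 1 point per liver in MARCO+ and Other segments. Mmp14 stands at 5.31 and 5.57 in the MARCO+ segments of livers 1 and 3 and at 4.18 or below in its other points.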

How the data were processed

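Fixed sections of 4 mouse livers were hybridised with the GeoMx Whole Transcriptome Atlas and stained for DESMIN, MARCO and IBA1. The authors converted sequencer output with bcl2fastq 2.20.0.422, per the submitters' processing notes, counted probe barcodes per segment and deposited Q3-normalized signal values for 607 genes picked as expressed by stellate cells. All 96513 values were whole multiples of a segment's value for 1 count (relative tolerance 1e-06), so counts could be recovered. Negative-probe values were not used here. The genome build named in the labels is mm10, and gene positions and promoters came from RefSeq tables for GRCm38.p6.

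Values were averaged linearly per liver, ROI class and segment type, and log2(value + 1) was taken. MARCO+ minus Other was formed within each liver with ROI classes weighted equally. The 4 differences were fitted with limma 3.58.1 in R 4.3.3 (eBayes, 3 residual and 10.4 prior degrees of freedom) with Benjamini-Hochberg adjustment over 607 genes at 0.05. The gap between ROI classes, the gap between liver labels, and MARCO+ against HSC and MARCO- segments were fitted with limma in the same way, except that a ROI class of a liver without MARCO- segments (MARCO-high in liver 2) was left out. Prior degrees of freedom were 4.52 to 11.5 in these fits and 66.8 against MARCO- segments, where the standard errors were therefore close to a value shared by all genes. Scripts were tested on simulated data. The methods name a linear mixed model without stating its random term, so both forms were run as alternatives with lme4 1.1.37 and lmerTest 3.1.3, beside edgeR 4.0.16 and DESeq2 1.42.0 on recovered counts. Counting error was larger in MARCO+ than in Other segments, with a median of 55.2% of genes under 10 counts in MARCO+ and 0% in Other segments. It was larger still in HSC segments (84.2%) and MARCO- segments (96.9%).

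Named genes were the 4 markers, the 12 highest and 12 lowest differences among genes below 0.05 whose sign was shared by the 4 livers, genes past the threshold between ROI classes or labels, and 2 to 4 members per list by size of difference, and others are given as chosen after their values were seen. The members and lists were chosen with earlier results of these data known. Among the 43 ROIs with both segment types, the deviations of MARCO+ and Other segments correlated by -0.093 to 0.31 (median 0.064), above 0.1 in 14. Results on some list members are not reported here.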

Additional observations from a re-analysis of the deposited data

Results flagged for a closer look

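The MARCO+ minus Other difference was unlike between livers labelled treated CCl4 and control for 4 genes by limma, with a gap of 1.25 for Mmp14, 1.03 for Marco, -0.87 for Bicc1 and -0.81 for Golim4 on the log2 scale.

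A single liver stood apart from the other 3 in 4 of 81 groups of 4 values checked, and chance alone gives about 1 in 20. The Tmem86a difference was 1.94 in liver 3. Ckb in MARCO+ segments was 4.69 in liver 1. The Lman1 difference was -1.03 in liver 4. Golim4 in Other segments was 4.68 in liver 4.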

How the results depend on the processing

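No gene was past the threshold in the opposite direction in any setting. Over the settings that scaled or modelled the segments otherwise, higher genes numbered 107 to 199 and lower genes 165 to 301. The 301 came from segments centred on their median, which also moved the median of all genes from -0.05 to -0.22. Pairing segments within an ROI as a block gave 136 higher and 224 lower genes. A mixed model with a random slope per liver gave 107 and 174, edgeR 195 and 186, and DESeq2 174 and 184. Leaving out 1 liver gave 137 to 168 higher and 157 to 189 lower genes.

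Results on few genes moved more. With a pseudocount of 5, the gap between ROI classes passed for 2 genes upward and 1 downward instead of 0, and the gap between liver labels for 4 and 4 instead of 2 and 2. Leaving out 1 liver gave 0 to 2 and 0 to 1 genes for the labels, and against MARCO- segments 15 to 26 higher and 103 to 163 lower genes. Without liver 3 or liver 4 the genes higher than in MARCO- segments numbered 18 and 15. Bicc1 in the comparison with Other segments changed sign under quantile normalization (0.066), and the cause was not tested. Low counts in MARCO+ segments, 4 livers and a table of stellate-expressed genes limit all of these counts.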

Other observations

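Outside the lists, 2 further genes were picked after their values were seen. Gnai2, an inhibitory G protein subunit through which chemokine receptors signal, averaged 6.54, 6.42, 6.40 and 6.40 in MARCO+ and 4.93, 4.95, 5.02 and 4.91 in Other segments of livers 1 to 4. The Gnai2 difference was 1.49 (limma adjusted p = 1.14e-08, the same sign in 4 of 4 livers), and MARCO+ segments were 1.05 higher than HSC segments. Lpl, lipoprotein lipase, which releases fatty acids from circulating triglyceride, averaged 5.03, 4.64, 5.15 and 4.31 against 3.29, 3.44, 3.60 and 2.87. The Lpl difference was 1.48 (limma adjusted p = 3.09e-08, the same sign in 4 of 4 livers), and MARCO+ segments were 1.75 higher than HSC segments.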
